A study of Mus musculus with 8 samples.

Results

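The 10 genes described here encode the FOS proteins (Fos, Fosb, Fosl1, Fosl2), the JUN proteins (Jun, Junb, Jund), the BACH repressors (Bach1, Bach2) and the small MAF protein MAFF (Maff). They were taken by symbol, through the Entrez gene identifiers of the count table, and are 10 of its 23403 genes. All 10 passed the filter on low counts, as did 13619 genes in all. The cells were Hepa-1c1c7 (Hepa-1), a mouse hepatoma line, so every library comes from 1 transformed line. RNA-seq compared 2 libraries of cells given 25 µM Cr(VI) as CrK2O4 for 90 min with 2 control libraries, whose labels do not say whether they were passaged beside the briefly or the chronically exposed cells. FAIRE-seq, which recovers DNA that is not crosslinked to protein, had 1 library for each of 4 conditions. These were the same acute exposure with its own control, and a chronic exposure, in which the medium held 0.5 µM Cr(VI) over 20 passages, with a control that went through equal passaging in plain medium.

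AP-1 is a dimer of basic leucine zipper proteins. JUN proteins pair with one another or with FOS proteins, FOS proteins need a partner, and the dimers bind the palindromic sequence TGACTCA. Several of the genes are immediate early genes, switched on within minutes by growth factors and stress through the MAP kinases. BACH1 and BACH2 pair with small MAF proteins, bind a longer form of the same sequence and hold down genes of heme and antioxidant metabolism. Heme and oxidants release BACH1 from DNA. Small MAF proteins such as MAFF have no activation domain of their own and also serve as partners of NRF2.

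Known control sequences of these promoters were searched on both strands in RefSeq promoter sequences of the GRCm38 build, which span 250 bases before to 50 after each annotated start. Of the 10 genes, 9 were matched there, with 11 promoters. Fosl1 had no entry. The following sites, in the direction of the gene and with the matched bases in capitals, are shown because they are copies of the searched sequences found near the starts of these genes. The first pair are CArG boxes, the binding sites of SRF. The next pair are the CRE sequence TGACGTCA and its variant TGACATCA, which are bound by ATF, CREB and JUN dimers. The last pair are AP-1 sequences.
Fos, chr12:85473571-85473600, plus strand: cacaggatgtCCATATTAGGacatctgcgt
Fosb, chr7:19310298-19310327, minus strand: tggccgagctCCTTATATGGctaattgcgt
Maff, chr15:79347481-79347508, plus strand: gctggggcggTGACGTCActgcatgact
Jun, chr4:95052250-95052277, minus strand: agcctcggggTGACATCAtgggctattt
Maff, chr15:79346258-79346284, plus strand: tttcatcctgTGACTCAgagtttggta
Fosl2, chr5:32135844-32135870, plus strand: gccattgtagTGACTCAtctcgggcag

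The CArG boxes of Fos and Fosb began 309 and 272 bases upstream of the start, outside the shorter window, and came from a search of 1 kb upstream that was added after the data were seen. A CArG box lay within 1 kb upstream of 5.47% of all 32851 promoters. The CRE of Maff began 29 bases upstream of the gene's internal start, and 1.79% of all promoters held this sequence in the shorter window. TGACATCA, also added after the data were seen, began 45 bases upstream of the Jun start and 45 bases upstream of another Maff start, against 3.62% of all promoters. No member promoter held TGACTCA in the shorter window, where 5.20% of all promoters did. Within 1 kb upstream it was found for Fosl2 at 618 bases and for Maff at 353 bases, with a share of 15.5% among all promoters. The longer TGACTCAGC, which contains TGACTCA, was found at none of the 9 genes in either window, and 1.47% of all promoters held it within 1 kb.

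The libraries held between 32319676 and 37696116 counts. The treated libraries differed far more from each other than the controls did, with a chi-square per degree of freedom of 126 against 2.15. These values cover 13313 and 13276 of the tested genes, those whose summed counts in the 2 libraries reached a set minimum. The 10 genes with the highest counts took 5.61% of the counts in treated replicate 2 and 3.95% to 4.13% in the other libraries. Levels are given as CPM, the counts of a gene scaled to a common library size after TMM normalization. Of the hepatocyte markers, 8 to 9 of 14 exceeded 1 CPM in each library. Their summed level was 7462 and 8762 CPM in the treated libraries and 4228 and 4365 CPM in the controls, with Alb at 3667 and 3550 CPM against 905 and 948 CPM. Serpina1a and Hnf4a stayed under 1 CPM in all libraries. Of 13 markers of blood, endothelial and fibroblast cells, Cd3e, Hbb-bs and Cdh5 were at 0 in every library. The sum over those 13 was 1209 and 1376 CPM in treated and 656 and 666 CPM in control libraries, most of it Dcn and Col1a1. The part of these marker differences in the results below was not tested. In bulk RNA, a change in how many cells express a gene and a change in RNA per cell cannot be told apart.

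Of the 10 genes, Maff had the lowest p for a difference between treated and control cells. Fosl1 had a larger mean difference, but its treated libraries lay on opposite sides of the controls. At an adjusted p-value under 0.05 by edgeR's quasi-likelihood test, 0 of the 10 genes were called, whereas 4.63% of all tested genes were called and 1.78% were called as higher in treated cells. At an unadjusted p under 0.05, edgeR gave 2 of the 10 genes (Maff and Fosl2), beside 30.7% of all genes. DESeq2 called 1 of the 10 (Maff), beside 15.2% of all genes. All 10 fold changes were above 0 with a median log2 fold change of 0.56, while over all tested genes 49.6% were above 0 and the median was 0.00 (−0.0047). With library size alone as the scaling, the median of all genes was −0.11 and Jund turned to −0.05, leaving 9 of 10 above 0. For 5 of the 10 genes (Fosl2, Jun, Junb, Bach2 and Maff) both treated libraries lay above both controls, beside 32.2% of all tested genes. Both lay below both controls for 0 of the 10 genes, beside 34.0%.

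**Figure D1:**
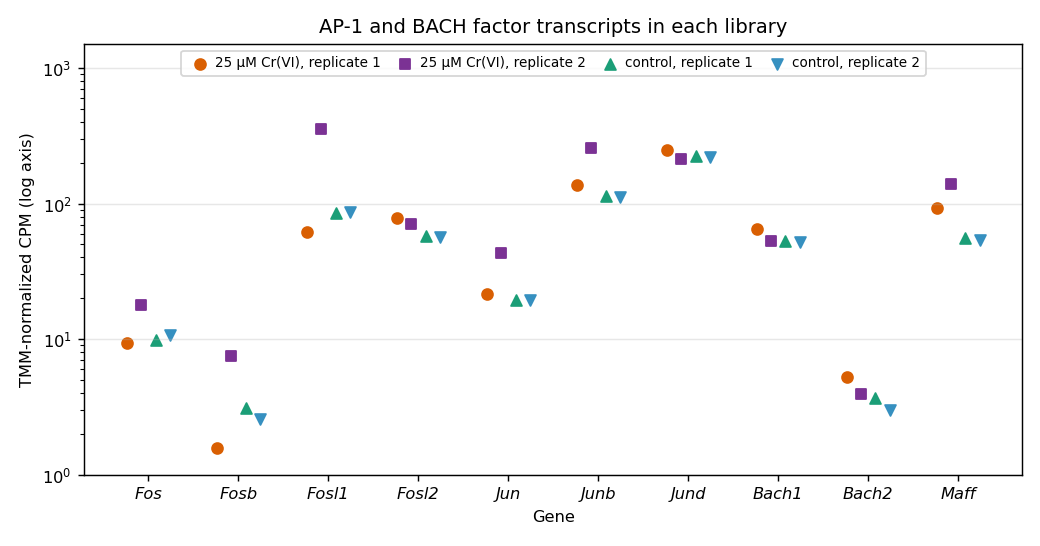
Level of each gene in each of the 4 RNA-seq libraries, as TMM-normalized CPM on a log axis; each point is 1 library, circles and squares for 25 µM Cr(VI) and triangles for control. The controls lie within 1.23-fold of each other at every gene, whereas the 2 treated libraries stand apart at Fosb, Fosl1 and Jun.

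Among the FOS genes, those with the largest mean differences were carried by a single treated library. Levels are given in CPM, first for treated replicates 1 and 2 and then for control replicates 1 and 2. Fosl1 encodes FRA-1, a FOS protein without the strong activation domain of FOS, and its level was 61.2 and 353 CPM in treated cells against 84.8 and 86.9 CPM in controls. Treated replicate 1 lay below both controls and treated replicate 2 was at 4.11 times the control mean. EdgeR gave a log2 fold change of 1.27 with a standard error of 0.82 and a 95% interval from −0.93 to 3.47, and edgeR's adjusted p was 0.350. Fosl1 (chr19:5447698-5455938) overlaps Ccdc85b on the other strand, and since the strand setting of the counting is not stated, its counts may include reads of that gene.

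Fosb encodes a close relative of FOS and was the least abundant of the FOS genes. Its level was 1.57 and 7.53 CPM in treated cells and 3.11 and 2.56 CPM in controls. The treated libraries thus lay on either side of the controls, and the log2 fold change of 0.68 had a 95% interval from −1.35 to 2.70. Fos itself, the prototype immediate early gene, was at 9.37 and 17.8 CPM in treated cells and at 9.87 and 10.8 CPM in controls. Treated replicate 2 was above and treated replicate 1 below both controls. For Fos the log2 fold change was 0.39, with an interval from −0.53 to 1.32 and an adjusted p of 0.483 in edgeR. Without treated replicate 2, the log2 fold changes of Fos, Fosb and Fosl1 turned to −0.15, −0.85 and −0.49, and without treated replicate 1 they were 0.79, 1.43 and 2.05.

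Fosl2, which encodes FRA-2, differed from the other FOS genes in that its treated libraries were close together. It was at 78.0 and 71.2 CPM in treated cells and 58.1 and 56.7 CPM in controls, with no overlap. Its log2 fold change was 0.38 with a standard error of 0.11 and an interval from 0.08 to 0.67. The unadjusted p was 0.0225 and the adjusted p was 0.115 in edgeR's quasi-likelihood test.

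The JUN genes divided into Jun and Junb, whose treated libraries lay above both controls, and Jund, whose did not. Jun, which encodes the strongest activator of the family, was at 21.4 and 43.1 CPM in treated cells and at 19.3 CPM in both controls. Treated replicate 1 was 1.11 times and treated replicate 2 was 2.23 times the control mean. The log2 fold change was 0.74 (standard error 0.36, interval −0.22 to 1.70) with an edgeR adjusted p of 0.240. Junb, whose protein can restrain JUN, was at 137 and 256 CPM in treated cells and at 114 and 112 CPM in controls. The groups did not overlap, but most of the difference came from treated replicate 2. For Junb the log2 fold change was 0.80 (standard error 0.32, interval −0.06 to 1.65) with an edgeR adjusted p of 0.183. Without treated replicate 2 the log2 fold changes of Jun and Junb were 0.15 and 0.27, and without treated replicate 1 they were 1.17 and 1.19.

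Jund, the JUN gene that most cells express without a stimulus, was at 249 and 212 CPM in treated cells and at 226 and 220 CPM in controls. The treated libraries enclosed the controls. Its log2 fold change was 0.05, with an interval from −0.31 to 0.41. Jund was the only JUN gene with treated replicate 2 below the control mean.

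Maff was the member with the lowest p. Its level was 92.4 and 138 CPM in treated cells and 55.8 and 54.3 CPM in controls. Both treated libraries were well above both controls, at 1.68 and 2.51 times the control mean. The log2 fold change was 1.07 with a standard error of 0.22 and an interval from 0.47 to 1.66. The unadjusted p was 0.0066 and the adjusted p was 0.0710 in edgeR, and DESeq2 gave 1.09 with an adjusted p of 0.000889. Over all alternatives the log2 fold change of Maff ran from 0.75 to 1.34 and the adjusted p from 3.81e-194, in edgeR with treated replicate 2 as the only treated library, to 0.198.

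Of the genes whose pattern over the 4 libraries was most like that of Maff, by Euclidean distance between centred log2 CPM values among 10560 genes, the nearest were Brd2, Rcor2 and Rpl35. Brd2, which encodes a bromodomain protein that binds acetylated histones, was at a distance of 0.0395, with 619 and 932 CPM in treated and 372 and 375 CPM in control libraries. Rcor2, a corepressor gene, was at 0.0643 and Rpl35, a ribosomal protein gene, at 0.0668. None of these 3 was called by edgeR, with adjusted p-values of 0.0817, 0.0879 and 0.0758.

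The BACH genes differed less. Bach1 was at 64.7 and 52.6 CPM in treated cells and 52.9 and 51.9 CPM in controls. Treated replicate 2 lay between the controls, and the fold change on the log2 scale was 0.16 with an interval from −0.22 to 0.55. Bach2, best known from lymphocytes, had few counts, with 177 and 114 counts in treated and 129 and 118 counts in control libraries. In CPM these were 5.23 and 3.94 against 3.71 and 3.02, without overlap by a narrow margin. Its log2 fold change was 0.45 with an interval from −0.24 to 1.14 and an edgeR adjusted p of 0.302. Bach2 overlaps Bach2os on the other strand, so its low counts may include reads of that transcript. Without treated replicate 1 the log2 fold changes of Bach1 and Bach2 were 0.02 and 0.24, and without treated replicate 2 they were 0.30 and 0.64.

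**Figure D2:**
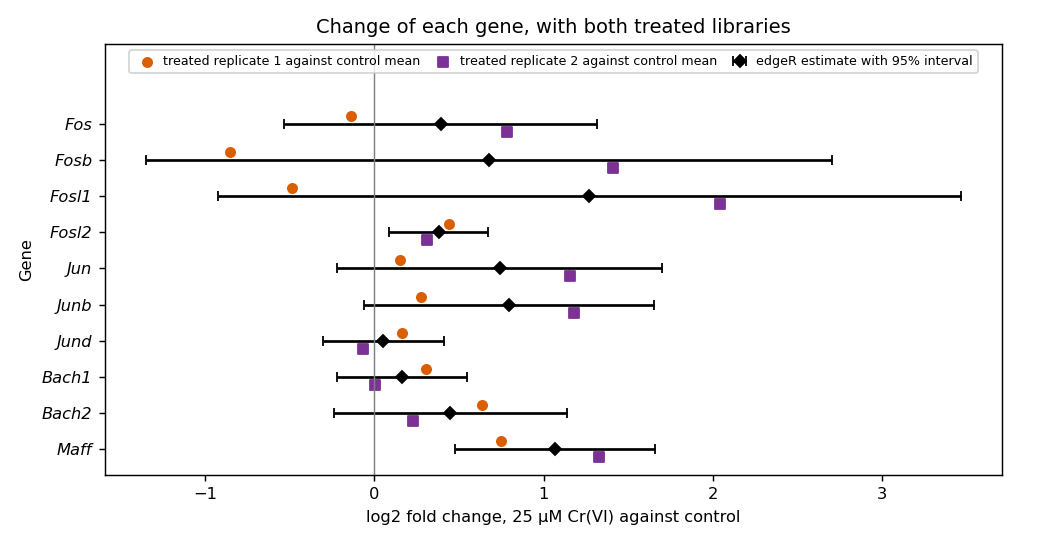
Difference of each gene between cells treated with 25 µM Cr(VI) and control cells on the log2 scale; diamonds with bars are the edgeR estimates with 95% intervals over 2 against 2 libraries, and circles and squares are each treated library against the mean of the controls. The intervals of Maff and Fosl2 lie above 0, and the treated libraries lie on opposite sides of 0 at Fos, Fosb, Fosl1 and Jund.

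The difference between the treated libraries was itself uneven over the 10 genes. They differed by more than 2-fold at 3 of them, which were Fosl1 at 5.76-fold, Fosb at 4.80-fold and Jun at 2.01-fold, and each time replicate 2 was the higher. Over all tested genes 11.4% differed by more than 2-fold between the treated libraries and 1.35% between the controls. None of the 10 genes differed by 2-fold between the controls, where the widest gap was the 1.23-fold of Bach2. Treated replicate 2 was the higher for 6 of the 10 genes (Fos, Fosb, Fosl1, Jun, Junb and Maff) and the lower for Fosl2, Jund, Bach1 and Bach2. Against the control mean, the median log2 difference of the 10 genes was 0.22 in treated replicate 1 and 0.97 in treated replicate 2. The labels do not say whether the replicates were separate cultures, so the p-values measure the spread between these libraries, which may be technical. When either treated library was left out, the remaining one was assumed to vary like the controls, and edgeR then called 7 of the 10 genes without replicate 1, beside 77.6% of all genes, and 8 without replicate 2, beside 67.2%. It called 0 of the 10 without either control replicate 1 or control replicate 2, beside 2.07% and 2.02% of all genes.

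Per kilobase of exon, the controls were dominated by Jund, Junb and Fosl1. As said above, the Fosl1 counts of all libraries may include reads of Ccdc85b. In RPKM, which is CPM divided by the length of the merged exons in kilobases, Jund was at 77.3 ± 1.5 (SD, n = 2), Junb at 61.4 ± 0.61 and Fosl1 at 50.3 ± 0.86. Maff followed at 10.7 ± 0.21, Fosl2 at 9.79 ± 0.16, Bach1 at 7.89 ± 0.11, Jun at 6.06 ± 0.0098 and Fos at 4.90 ± 0.31. Fosb was at 0.736 ± 0.10 and Bach2 at 0.0864 ± 0.013. No 2 neighbours in this order overlapped in their 2 libraries. Maff would stand at 17.2 RPKM, in the same place, if measured per kilobase of its longest transcript.

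In treated cells the mean order was led by Fosl1 at 121.5 ± 121 RPKM (SD, n = 2), Junb at 107 ± 46 and Jund at 80.2 ± 9.1. The libraries of Fosl1 and Junb overlapped, as did those of Junb and Jund, so the order among these 3 was not resolved. Maff at 22.5 ± 6.3 RPKM was clear of its neighbours on either side. Fosl2 at 12.7 ± 0.82, Jun at 10.1 ± 4.8, Bach1 at 8.83 ± 1.3 and Fos at 6.44 ± 2.8 followed, and each of these overlapped its neighbour among them. Fosb at 1.18 ± 1.1 and Bach2 at 0.118 ± 0.024 stayed last.

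The make-up of both families differed between the treated libraries. Junb took 44.3% and 61.4% of the summed RPKM of the JUN genes in treated replicates 1 and 2, and 42.3% and 42.6% in the controls. Jund took 51.7% and 32.6% in treated cells and 53.6% and 53.2% in controls. Replicate 1 was thus close to the controls, and in replicate 2 Junb was ahead of Jund. The summed level of the JUN genes was 168 and 226 RPKM in treated and 146 and 143 RPKM in control libraries.

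In the FOS family, Fosl1 was the main transcript in every library, though its counts may include reads of Ccdc85b. Its share was 66.4% and 90.2% in treated cells and 76.4% and 76.7% in controls. Fosl2 took 24.6% and 5.29% in treated cells against 15.2% and 14.6%, so the treated libraries departed from the controls in opposite directions. The family sum was 54.1 RPKM in treated replicate 1 and 229.5 RPKM in treated replicate 2, beside 65.1 and 66.4 RPKM in controls. Fos took 8.22% and 3.67% against 7.18% and 7.71%, and Fosb stayed at or under 1.24% in all libraries.

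**Figure D3:**
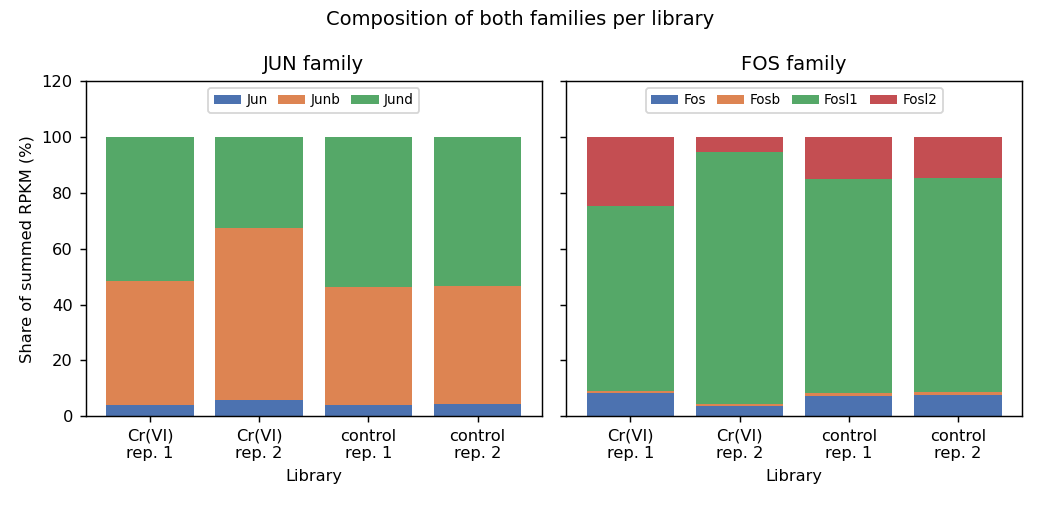
Share of each gene in the summed RPKM of the JUN family (left) and of the FOS family (right), in percent, with 1 bar for each RNA-seq library. Both controls look alike in each family, and treated replicate 2 has the largest shares of Junb (61.4%) and Fosl1 (90.2%).

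The leucine zipper relatives of AP-1, which can pair with the 10 proteins or bind related sites, were set beside them. Of 20 such genes, of which Mafg is also among the BACH1 targets below, 13 passed the filter and edgeR called 0, with 6 at an unadjusted p under 0.05 and 5 called by DESeq2 (3 higher, 2 lower). Their median log2 fold change was −0.04, against 0.56 for the 10 genes. Over all tested genes, 30.7% had an unadjusted p under 0.05 and DESeq2 called 15.2%. Both treated libraries were above both controls for 4 and below both for 5 of the 13, beside 32.2% and 34.0% of all tested genes. Nfe2l2, which encodes NRF2, had the highest CPM of the list, at 615 and 574 CPM in treated and 391 CPM in both control libraries, with a log2 fold change of 0.60 ± 0.13 (SE) and an edgeR adjusted p of 0.0763. Nfe2l1, its paralog, was at 285 and 250 CPM against 340 and 349 CPM, with −0.37 ± 0.13 and 0.155. Treated replicate 2 was above treated replicate 1 for 3 of the 13, beside 49.4% of all tested genes. Atf3 and Mafk, which are among these 3, were chosen after their values were seen, for their wide spread between the treated libraries. Unlike Fosl1, they lay above both controls in both treated libraries. Atf7 was spread the other way, at 22.9 and 7.94 CPM in treated and 26.2 and 23.0 CPM in control libraries. Atf3, a stress-induced repressor, was at 33.96 and 155.5 CPM against 24.4 and 24.1 CPM, and Mafk, another small MAF gene, was at 91.2 and 303 CPM against 82.7 and 84.6 CPM. The third small MAF gene, Mafg, was at 42.5 and 38.05 CPM against 53.9 and 50.1 CPM, below both controls, so the treated libraries lay above the controls for Maff and Mafk and below them for Mafg.

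Upstream of AP-1, 30 genes for MAP kinases, their phosphatases, the promoter factors SRF and ELK and factors of JUN turnover were listed. Of these 29 passed the filter and edgeR called 0, with 6 at an unadjusted p under 0.05, beside 30.7% of all genes, and 1 called by DESeq2, beside 15.2%. The median log2 fold change was 0.09. Both treated libraries were above both controls for 11 and below both for 10 of the 29, close to the 32.2% and 34.0% of all tested genes. The highest CPM values were those of Dusp4, a phosphatase of nuclear MAP kinases, at 326 and 377 CPM against 319 and 311 CPM, and Mapk3, which encodes ERK1, at 278 and 307 CPM against 206.5 and 207 CPM. Their log2 fold changes were 0.16 ± 0.14 (SE) and 0.50 ± 0.12, with edgeR adjusted p-values of 0.473 and 0.0880. Srf, whose product binds the CArG boxes printed above for Fos and Fosb, was chosen after its values were seen. It was at 79.8 and 79.5 CPM in treated cells and 51.9 and 50.8 CPM in controls. The adjusted p of Srf, 0.0502 in edgeR, was just over the threshold. For the promoter factor genes Elk3 and Elk4 both treated libraries lay below both controls, and for Elk1 the groups overlapped.

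Downstream, 20 of 25 genes known to be induced through AP-1 sites, with Dusp1 also among the phosphatases above, passed the filter. EdgeR called 0 of them, and 7 had an unadjusted p under 0.05, close to the 30.7% of all tested genes. DESeq2 called 6, 2 as higher and 4 as lower, beside 7.76% and 7.46% of all genes in these directions. The median log2 fold change was 0.12. Treated replicate 2 was above treated replicate 1 for 19 of the 20, beside 49.4% of all tested genes. Their median against the control mean was −0.53 in replicate 1 and 0.37 in replicate 2. The 2 with the highest CPM were Ccnd1, the cyclin D1 gene, at 840 and 977 CPM against 1316 and 1306 CPM, and Hmga1, a chromatin protein gene, at 507 and 800 CPM against 697 and 714 CPM. Others chosen after their values were seen lay in both directions. Mmp9, a matrix metalloproteinase gene, was at 1.98 and 4.97 CPM against 0.345 and 0.154 CPM, whereas Ptgs2, the COX-2 gene, was at 4.17 and 16.9 CPM against 52.4 and 55.2 CPM. Spp1, which encodes osteopontin, was at 181 and 260 CPM against 537 and 554 CPM.

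All 20 listed targets of BACH1 passed the filter, most of which are also targets of NRF2. EdgeR called 0, with 9 at an unadjusted p under 0.05, beside 30.7% of all tested genes. DESeq2 called 7, all higher, beside 7.76% of all genes called as higher. The median log2 fold change was 0.64, and 14 of 20 were above 0. Both treated libraries lay above both controls for 12 and below both for 3 of the 20, beside 32.2% and 34.0% of all tested genes. The highest CPM values were those of Gapdh, a glycolytic gene, at 3416 and 5850 CPM against 4624 and 4864 CPM, and Fth1, the ferritin heavy chain gene, at 2657 and 4583 CPM against 1556 and 1602 CPM. The log2 fold change of Fth1 was 1.20 ± 0.33 (SE) with an edgeR adjusted p of 0.106. Hmox1, the heme oxygenase gene and best known BACH1 target, was chosen after its values were seen. It was at 49.9 CPM in treated replicate 1, below both controls at 52.1 and 55.2 CPM, and at 316 CPM in treated replicate 2.

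The counts of genes called in these lists turned on the treated libraries. Without treated replicate 1, which left a lone treated library assumed to vary like the controls, edgeR called 12 relatives, 23 upstream genes, 19 AP-1 targets and 18 BACH1 targets, in a fit that called 77.6% of all genes. Without treated replicate 2 it called 10, 21, 17 and 17, beside 67.2% of all genes. Without control replicate 1 or 2 it called 1, 0, 3 and 2 each time, beside 2.07% and 2.02% of all genes. The median of the AP-1 targets was −0.59 without treated replicate 2.

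**Figure D4:**
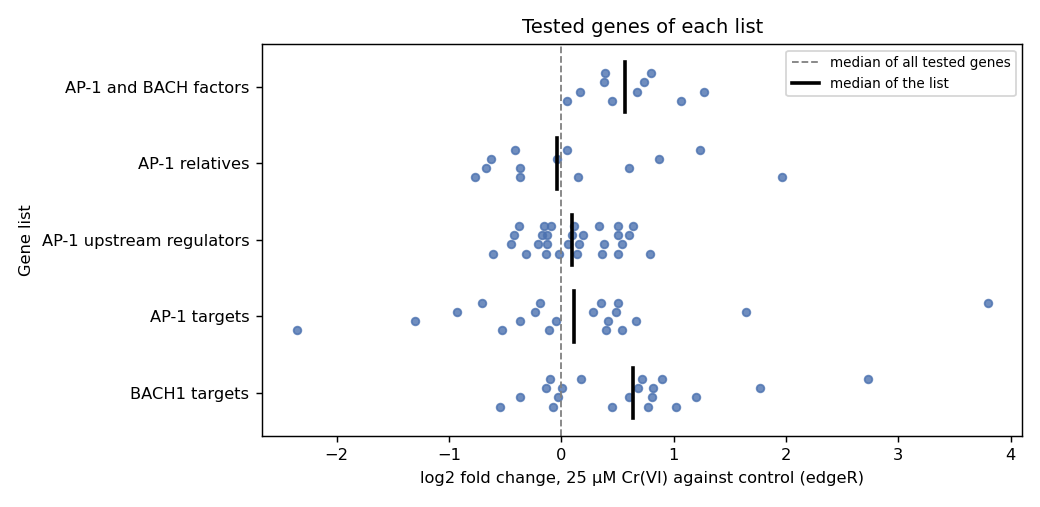
Log2 fold changes (edgeR, 25 µM Cr(VI) against control) of the tested genes of each list, 1 point per gene; black lines are list medians and the dashed line is the median of all tested genes. The medians are 0.56 for the AP-1 and BACH factor genes, −0.04 for relatives, 0.09 for upstream regulators, 0.12 for AP-1 targets and 0.64 for BACH1 targets, and each list has points on both sides of the dashed line except the first.

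FAIRE peaks open in treated cells lay at 2 of the 10 genes, 1 in each regimen. With 1 library per condition these peaks have no replicate check, and the files give no read counts. The MACS score is −log10 of the p-value multiplied by 10. In the list for 25 µM Cr(VI) and 90 min, 1 gene (Maff) had a peak within 10 kb of its span, beside 9.24% of all 23281 annotated genes in the count table. In the list for the chronic exposure it was 1 gene (Junb), beside 2.97%.

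The Junb peak lay over the promoter. It spanned chr8:84978574-84979191 (618 bp) and its centre was 134 bp upstream of the start of Junb, a gene on the minus strand at chr8:84976909-84978748. Of its bases, 443 were upstream of the start and 175 in the gene. Its score was 59.94 in a list that ran from 50.01 to 3100, with a median of 57.76. It was among the peaks of the chronic regimen, for which RNA-seq libraries were not analysed here. The 250 bases just upstream of the start, all of them inside the peak, are shown in the direction of transcription (chr8:84978749-84978998, minus strand).
Junb promoter: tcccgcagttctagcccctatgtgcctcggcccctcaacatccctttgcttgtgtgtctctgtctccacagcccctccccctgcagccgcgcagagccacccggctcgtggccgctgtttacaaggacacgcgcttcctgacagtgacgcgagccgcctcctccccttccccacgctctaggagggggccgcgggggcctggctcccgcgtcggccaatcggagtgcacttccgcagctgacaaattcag
None of the searched sequences (TGACTCA, TGACGTCA, TGACTCAGC, TGACATCA and the CArG box) was found in this peak, so no base is in capitals.

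The Maff peak lay behind the gene. It spanned chr15:79360202-79360328 (127 bp), 1124 bp beyond the annotated end of Maff (chr15:79346621-79359078) and 7350 bp downstream of the nearest Maff start. It overlapped no gene, and the nearest start of any gene was that of Maff. Its score was 68.02, in a list that ran from 50.00 to 140.87 with a median of 57.16. Its whole sequence is shown because Maff was the member with the lowest p in the same regimen.
Maff downstream peak, plus strand: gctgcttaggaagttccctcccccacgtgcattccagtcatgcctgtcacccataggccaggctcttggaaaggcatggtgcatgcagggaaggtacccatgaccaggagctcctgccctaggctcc
The searched sequences were not found in it either.

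Within 50 kb, 2 further genes of the acute list came into reach. The share of all genes with an acute peak within 50 kb was not computed, so this number has no background to be read against. Bach1 had a peak 11.6 kb beyond its end (chr16:87744983-87745077, score 50.53), inside Gm32925 and nearer to the start of that gene (6426 bp) than to a start of Bach1 (30900 bp). Of its bases 95.8% were masked as repeat in the reference. Junb had acute peaks 12.2 kb upstream inside Hook2 (chr8:84990924-84991097, score 51.65) and 29.5 kb beyond its end inside Rtbdn (chr8:84947305-84947376, score 68.79), each nearer to the start of that gene than to Junb. For the 7 other genes the nearest acute peak was from 68.5 kb (Jund) to 4120 kb (Jun) away. Fosl1, with the largest mean difference in RNA, had its nearest acute peak at 126 kb and Fos at 101 kb.

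**Figure D5:**
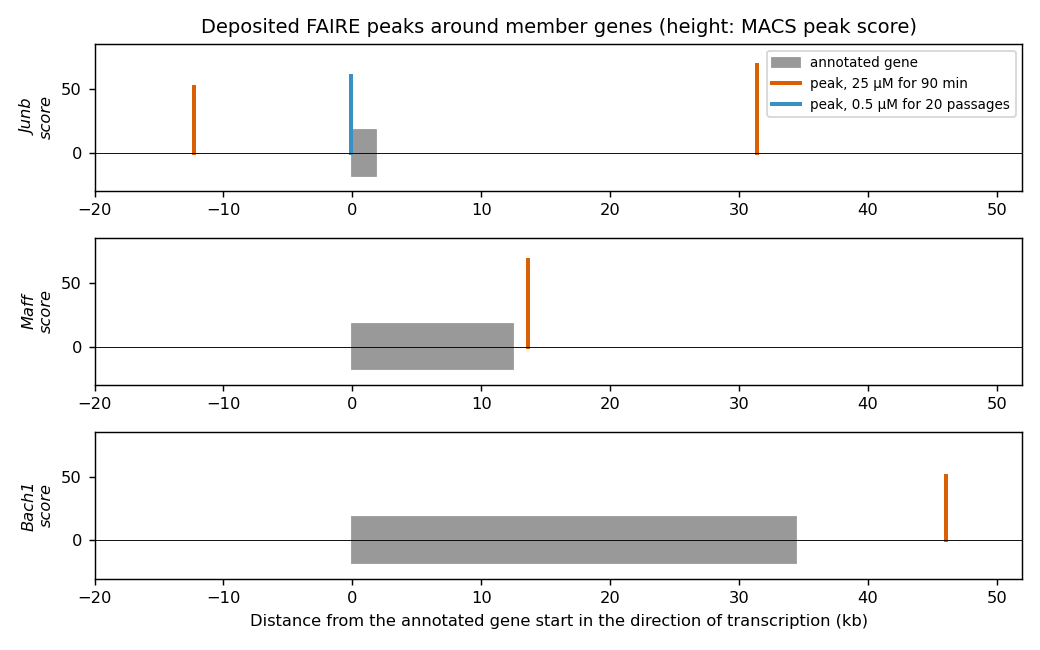
Deposited FAIRE peaks around Junb, Maff and Bach1, by distance in kb from the annotated start in the direction of transcription, with bar height as the MACS score and grey boxes as the annotated genes. The chronic-regimen peak stands at the Junb start, the Maff peak just behind the gene, and the other acute peaks over 10 kb outside the genes.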

How the data were processed

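RNA-seq counts were deposited as unnormalized reads per Entrez gene, which the authors obtained with TopHat on the mm10 genome. The counting tool and its strand setting are not given in the sources used here. The peak lists hold the score deposited by the authors from MACS at default settings, treated against control, after BWA alignment. Pipeline notes of the submitters also name bcl2fastq, CASAVA 1.8 and DESeq. Peaks come without counts, so their depth is unknown. Of 23403 gene identifiers, 23281 were found in the RefSeq annotation of GRCm38, the assembly called mm10, which gave positions, lengths and promoters.

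Genes were filtered with filterByExpr, scaled by TMM and tested over 13619 genes by quasi-likelihood in edgeR (both sides, legacy mode, no block, Benjamini-Hochberg adjustment, threshold 0.05). The biological coefficient of variation was 0.193. Total counts per library were 32877791 and 32319676 (treated) and 33303645 and 37696116 (control), and TMM factors were 1.03, 0.897, 1.04 and 1.04. Same-numbered treated and control libraries deviated together with a correlation of 0.118, but with 2 numbers this does not establish pairs. Lists were described by counts and medians. A peak was assigned to a gene when within 10 kb of its span.

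The 10 genes and all lists were chosen with earlier results of these data known. Besides the 10 genes, the rule named each list gene called by edgeR and, where under 2 were called, the 2 with the highest mean log2 CPM, and the 3 genes nearest to the lowest-p member. Alternatives were DESeq2, library size only, DESeq2 size factors, no filter, a replicate block, each library left out, longest transcripts, other peak windows and score minimums of 60 and 100. Added after seeing the data were edgeR's bias-adjusted fit and the 1 kb promoter window with TGACATCA. Scripts were tested on simulated data. Proteins were not analysed here. The software was edgeR 4.0.16 and DESeq2 1.42.0 in R 4.3.3, and pandas 2.3.3, pysam 0.24.0 and matplotlib 3.10.9 in Python 3.11.15.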

Additional observations from a re-analysis of the deposited data

How the results depend on the processing

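Over all genes edgeR called 631, DESeq2 2073 and the fit with a replicate block 2969 (21.8%) of 13619, and leaving out 1 library gave 287 to 10995. Of the 10 genes, DESeq2 called 1, and leaving out 1 library gave 0 to 8 with a median log2 fold change of 0.22 to 0.98. The replicate block called 4 of them, Fosl1 (log2 fold change 0.78, adjusted p = 0.00752), Jun (0.66, 0.0487), Junb (0.73, 0.00713) and Maff (1.04, 2.06e-05), but the 2 shared numbers do not show that the samples were paired. DESeq2 called 5 relatives, 1 upstream regulator, 6 AP-1 targets and 7 BACH1 targets, beside 15.2% of all genes. The block called 6, 2, 5 and 8, beside 21.8%. Upstream regulators had 1 call with DESeq2 size factors in edgeR and 1 with the bias-adjusted fit, beside 4.7% and 5.21% of all genes. AP-1 targets had 2 with library size only and 3 without the filter, beside 3.35% and 4.12% of all genes. Leaving out 1 library gave 1 to 12 calls among relatives (median −0.22 to 0.09), 0 to 23 among upstream regulators, 3 to 19 among AP-1 targets (median −0.59 to 0.38) and 2 to 18 among BACH1 targets (median 0.24 to 0.89). The high counts come from fits with 1 treated library, where the spread is that of the controls. Jund reversed to −0.052 with library size only, and leaving out 1 library gave −0.058 to 0.16 for Jund, −0.15 to 0.79 for Fos, −0.85 to 1.43 for Fosb and −0.49 to 2.05 for Fosl1, all 4 reversed in 1 of these fits. In all these fits the log2 fold changes of Fosl2, Jun, Junb, Bach1, Bach2 and Maff stayed above 0, with leave-one-out ranges of 0.32 to 0.44, 0.15 to 1.17, 0.27 to 1.19, 0.02 to 0.30, 0.24 to 0.64 and 0.75 to 1.34. The family shares could not move with library size only, because the scaling of a library cancels in a share. Longest transcripts could hardly move them, as only Fosb of these genes has a longest transcript (3776 bases) unlike its merged exons (3849 bases). The treated minus control share of Fosb was −0.324 percentage points with the longest transcripts and −0.318 with merged exons. Genes with an acute peak numbered 0 within the gene span, 0 within 1 kb of a start, 0 at a score of at least 100 and 3 within 50 kb. Genes with a chronic peak numbered 0 at a score of at least 60 and 0 at 100. The shares of all genes in these other windows and at these score minimums were not computed. In the 1 kb window 2 of 11 member promoters held TGACTCA, 2 the CRE and 2 the CArG box. Among all promoters the shares were 15.5%, 2.25% and 5.47%. Both promoters with the CRE were those of Maff, and they held the same site, the one printed above, read from different starts. No other alternative moved these peak or motif counts past 1.5 times.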

Other observations

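Peaks of the FAIRE lists also lay within 10 kb of genes of the 4 surrounding lists, which are named here after their values were seen. In the list for 25 µM Cr(VI), 3 of 20 relatives (15.0%), 3 of 30 upstream regulators, 4 of 25 AP-1 targets (16.0%) and 3 of 20 BACH1 targets (15.0%) had such a peak, beside 9.24% of all genes. Among relatives, Atf2 and Atf7 held the peak inside the gene, and the peak of Mafk, the small MAF gene with 91.2 and 303 CPM in treated cells, was 9843 bp beyond its end. Inside the BACH1 target Osgin1, an oxidative stress response gene, a peak lay at chr8:119429778-119429898 with a score of 62.39. Osgin1 was at 31.8 and 182 CPM in treated cells and 15.4 and 16.8 CPM in controls, with a log2 fold change of 2.73 ± 0.87 (SE) and an edgeR adjusted p of 0.130. Vegfa, the vascular growth factor gene, held a peak of score 52.04 and was at 60.1 and 207 CPM against 42.8 and 42.5 CPM. Cd44, a cell surface receptor gene, also held an acute peak (score 53.44), yet both its treated libraries, at 381 and 404 CPM, lay below both controls at 646 and 636 CPM. Genes with a peak inside thus lay on either side of the controls. In the list for 0.5 µM Cr(VI), 1 of 30 upstream regulators (3.33%) and 1 of 25 AP-1 targets (4.0%) had such a peak. Of 20 relatives and of 20 BACH1 targets 0 had one, and the share of all genes was 2.97%. The genes were Mapk8, which encodes JNK1, and Mmp10, a matrix metalloproteinase gene. Each had 1 peak, which spanned the annotated start of the gene, with scores of 58.99 and 54.49.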
